A study of Mus musculus with 50 samples.

Results

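App, the gene of the amyloid precursor protein, and its relatives Aplp1 and Aplp2 were followed across all 5 comparisons of a mouse brain array study. The 9 clones whose array name begins with "amyloid beta (A4) precursor protein" or "amyloid beta (A4) precursor-like protein" were taken, and binding proteins with a similar name were left out. They were 9 of the 22824 non-control clones on a 24192-spot cDNA array, 5 for App, 2 for Aplp1 and 2 for Aplp2. Clones of a gene are numbered here in the order of their spots, so that App clones 1 to 5 are spots 49, 3600, 6204, 14388 and 16405, Aplp1 clones 1 and 2 are spots 12328 and 20691, and Aplp2 clones 1 and 2 are spots 2951 and 12610. Each clone is a separate piece of spotted cDNA, and the array lists do not say which part of a transcript it covers.

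The RNA came from the hypothalamic paraventricular nucleus (PVN), the region that starts the hormonal stress response, punched out together with adjacent tissue from male mice aged 3 to 5 months and housed singly. Basal animals of the inbred strains C57BL/6J (C57BL/6 in the sample labels and below) and DBA/2J were not stressed, and the other animals swam once for 5 min in a cylinder of water and were decapitated 4 h or 8 h later. All animals were decapitated at the same clock time, so the 4 h and 8 h groups swam at different times of day. Time since the swim and hour of the swim therefore cannot be told apart. The 6 conditions were basal, 4 h stressed and 8 h stressed in each strain, each as 1 pool of 6 animals amplified in 2 rounds. The strains were compared at rest, and each stressed pool was compared with the basal pool of its strain, on 10 arrays per comparison with 5 in each dye orientation. The 10 arrays of a comparison were repeated hybridisations of the same 2 pools. Every p-value below therefore covers the spread among repeated arrays and says nothing about the spread between animals. The methods do not say whether each array had its own labelling, so labelling error shared by arrays may not be covered. A basal pool was shared by 3 comparisons, and fewer cells of a type cannot be told apart from less RNA per cell.

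App encodes a transmembrane protein of neurons and glia that is cut either by alpha-secretases within the amyloid beta stretch, or by beta-secretase and then gamma-secretase, which frees amyloid beta. The first route releases a soluble ectodomain that has been studied for effects on neuronal growth and survival. Aplp1 and Aplp2 share the ectodomain and the cytoplasmic tail of App and are cut by some of the same proteases, but lack the amyloid beta sequence. Aplp1 is found mainly in neurons, while App and Aplp2 are widely expressed.

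Over all arrays the median spot intensity of the non-control clones ranged from 135 to 295 in Cy5 and from 218 to 491 in Cy3. Between 5.32% and 57.1% of clones on an array lay above the 95th percentile of the empty spots in both channels. Across the 22824 clones, the mean ratios of the 2 dye orientations of a comparison correlated at -0.26 to 0.12. Scans of a comparison fell on 1 to 3 days.

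The clones differed in how far they stood above the empty spots. App clones 1, 2 and 5 were above the empty spots' 95th percentile in both channels on 8 to 10 of 10 arrays in every comparison. Aplp1 clone 1 reached this on 5 to 10 arrays, and Aplp2 clone 2 on 7 to 10 arrays except in DBA/2J mice at 8 h, where it reached it on none. App clone 4 and Aplp2 clone 1 were below it nearly throughout, on at most 3 and 1 of 10 arrays, and their ratios carry little information. App clone 3 passed on all 10 arrays of C57BL/6 mice at 4 h and on 7 arrays of DBA/2J mice at 4 h, but on none in either strain at 8 h. In the arrays of C57BL/6 mice at 8 h its median intensity was 48.1 in Cy5 and 147 in Cy3, against 964 and 1077 in those of DBA/2J mice at 8 h. Aplp1 clone 2 passed on 6 arrays of C57BL/6 mice at 4 h and on none elsewhere. With a share of at least 0.5 of the arrays of a comparison as the filter, 3 of the 5 App clones passed at rest, 4 and 3 in C57BL/6 mice at 4 h and 8 h, and 4 and 3 in DBA/2J mice at 4 h and 8 h.

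Levels of a clone in each pool were read from the separate channels after normalization over all 50 arrays, as log2 intensity. The level of App clone 2 in the basal DBA/2J pool was 12.29 ± 0.69 (SD, n = 10 arrays) in the strain comparison, 13.49 ± 0.52 in the 4 h comparison and 13.08 ± 0.13 in the 8 h comparison. The level of App clone 1 in this pool ranged from 10.83 to 12.66 over the same 3 comparisons. For App clone 3 the basal C57BL/6 pool gave 9.60 ± 0.49 in the strain comparison, 9.09 ± 0.63 in the 4 h comparison and 6.95 ± 0.77 in the 8 h comparison. These shifts of 1.20, 1.83 and 2.65 for the same RNA were larger than any mean ratio of an App clone, so the pools were not put in an order of level across comparisons. Within a comparison the levels of each App clone in the 2 pools lay within their summed SDs of each other, with the exception of App clone 2 in DBA/2J mice at 8 h, at 13.08 ± 0.13 basal and 12.59 ± 0.14 stressed. The 2 pools of a comparison share their arrays, so these SDs also hold the spread in brightness between arrays. They do not test the difference between the pools, which the ratios below take within each array.

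**Figure D1:**
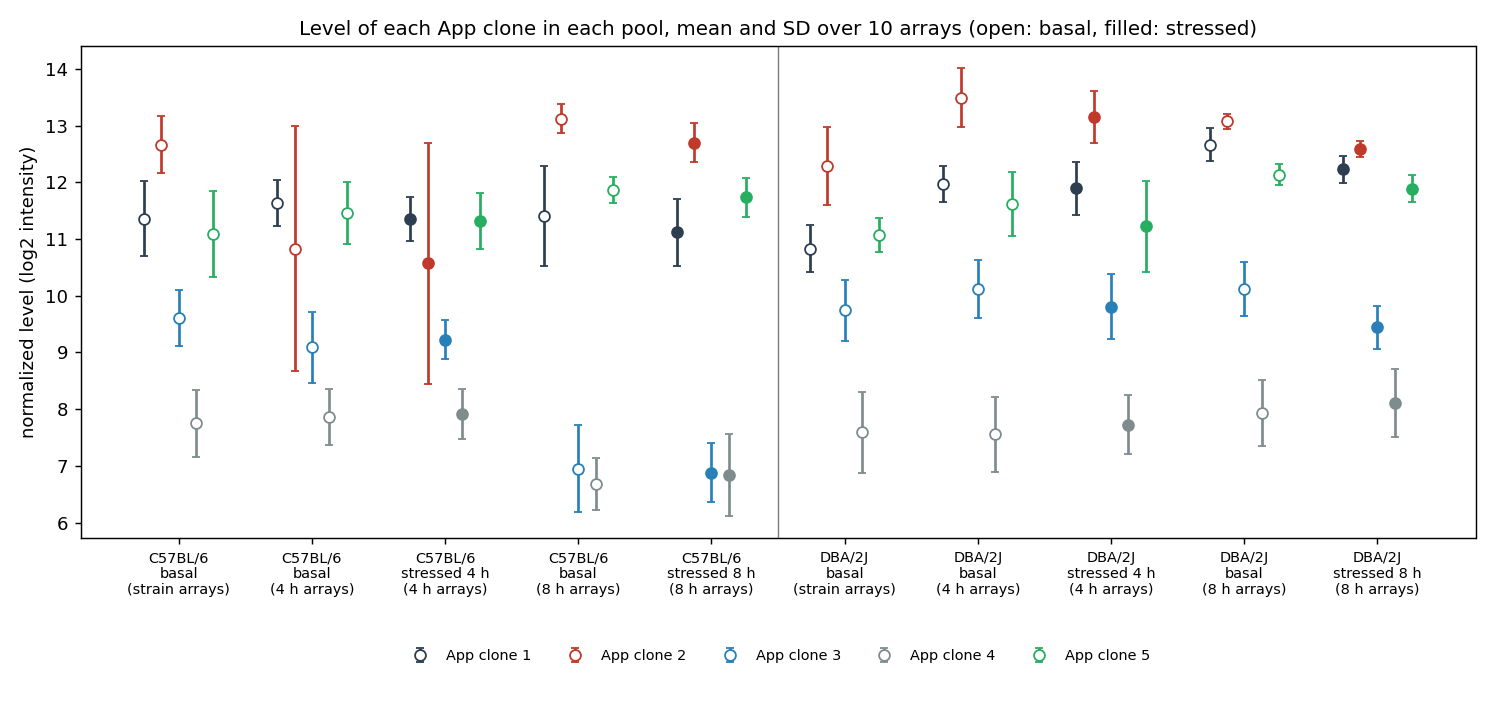
The normalized level of each App clone (log2 intensity, vertical axis) is drawn for each pool in each comparison, as the mean and SD of 10 arrays, with open symbols for basal and filled symbols for stressed pools. The same basal pool sits at different heights in different comparisons, most of all for App clone 3 in C57BL/6 mice at 8 h, near 6.95, and App clone 2 has an SD of 2.16 in the basal C57BL/6 pool at 4 h.

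All ratios below are log2 ratios turned by the dye labels, so that DBA/2J stands over C57BL/6 and stressed over basal, and the published fold changes of the study carry the opposite sign in all 5 comparisons. The array files do not settle which is right. A value of -0.49 for stressed over basal therefore reads as 0.49 if the labels are turned, and the word lower below means lower by the labelled dyes. A clone was called where limma gave an absolute log2 ratio of at least 0.5 (1.414-fold) and a Benjamini-Hochberg adjusted p under 0.05 over all 22824 clones.

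None of the 9 clones was called in any comparison by limma. Of all clones, 3.62% were called at rest, 0.289% and 0.0832% in C57BL/6 mice at 4 h and 8 h, and 0.153% and 0.158% in DBA/2J mice at 4 h and 8 h. At an unadjusted p under 0.05, 3 of the 9 clones passed at rest (15.4% of all clones), 1 in C57BL/6 mice at 4 h (12.3%), 3 in C57BL/6 mice at 8 h (9.28%), 4 in DBA/2J mice at 4 h (10.7%) and 5 in DBA/2J mice at 8 h (12%). With 1 exception these passes lay below 0, and the exception was Aplp1 clone 2 at rest. The methods' t-test with the same fold and adjustment called 1 clone, App clone 3 in DBA/2J mice at 8 h, where it called 0.39% of all clones. Without adjustment it also called App clone 1 and Aplp1 clone 2 at rest, where 6.73% of all clones passed.

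**Figure D2:**
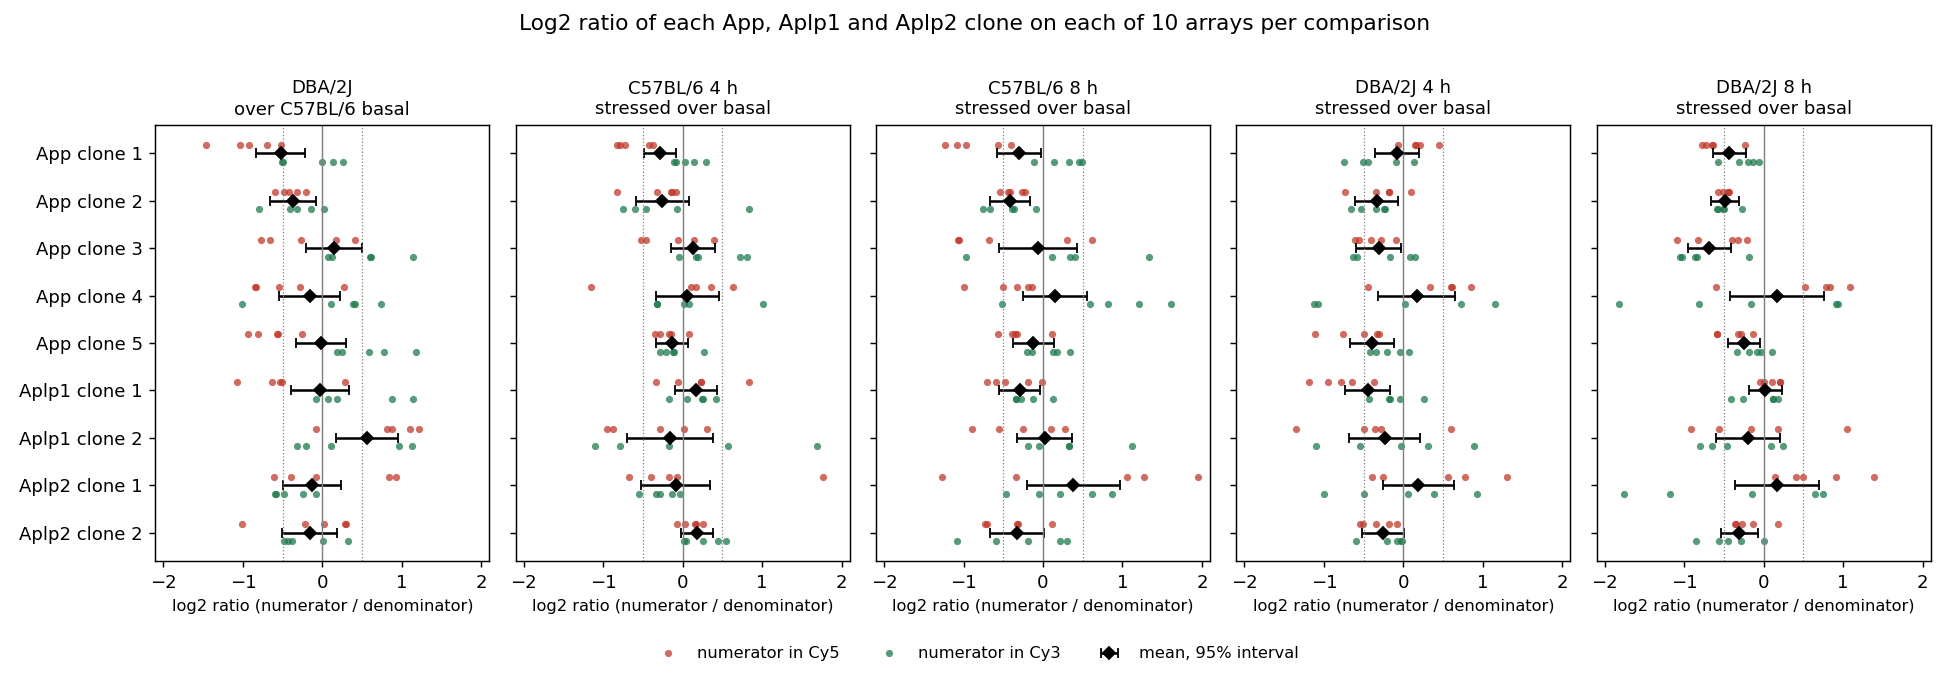
Each panel is a comparison and each row a clone, the horizontal axis is the log2 ratio of numerator over denominator, small points are the 10 arrays coloured by the dye of the numerator, and diamonds with bars are the mean and its 95% interval from limma. In DBA/2J mice at 8 h all points of App clones 1, 2 and 3 lie left of 0, while App clone 4 spreads from -1.82 to 1.09 and Aplp2 clone 1 from -1.76 to 1.39.

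The App clones stood closest to a call in DBA/2J mice 8 h after the swim. App clone 2, above the empty spots on all 10 arrays, ranged from -0.59 to -0.277 over the 10 arrays with a median of -0.51. All 10 arrays were below 0, and both dye orientations gave the same mean, -0.49. Its mean was -0.489 (SE 0.08, adjusted p = 0.047), which passed the adjusted p and missed the fold threshold. App clone 3 ranged from -1.09 to -0.18 with a median of -0.83, and again no array was above 0. Its mean of -0.68 (SE 0.12) passed the fold with an adjusted p of 0.056. It came from spots that were below the empty spots' 95th percentile in at least 1 channel on every array. On these arrays 5.3% to 8.1% of clones were above that percentile in both channels, and App clone 3 was brighter than 82.3% of clones. Its mean log2 intensity was 9.96, against 9.61 and 9.80 in C57BL/6 and DBA/2J mice at 4 h, where it passed the filter. App clone 1 ranged from -0.78 to -0.06 with a median of -0.45 (mean -0.43, SE 0.095, adjusted p = 0.103), all below 0. App clone 5 ranged from -0.59 to 0.10 with a median of -0.23 (mean -0.24, SE 0.09, adjusted p = 0.305), with 9 of 10 arrays below 0. The dim App clone 4 ran the other way with a very wide spread, from -1.82 to 1.09 (mean 0.17, SE 0.27).

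Thus 4 of 5 App clones were lower at an unadjusted p under 0.05, against 5.9% of all clones and 15.8% of the 1421 clones above the empty spots. The 5 clones measure 1 gene in the same 2 pools and are not separate tests of the response. The median of the 5 means was -0.43, beside 0.001 for all clones, and the median of the 5 clones was below 0 on all 10 arrays. Ratios below 0 on every array were seen in 0.995% of all clones in this comparison. On the 3 scan days App clone 2 had means of -0.51, -0.50 and -0.46, and App clone 3 of -0.54, -0.78 and -0.69. Day 1 held only arrays with the stressed pool in Cy5, and day 3 only arrays with it in Cy3. The days are therefore not a check apart from the dye orientation. With any 1 array left out, the mean of App clone 2 stayed between -0.516 and -0.477, and its adjusted p rose to between 0.096 and 0.134. Among the 32 neuron marker clones, an unadjusted p under 0.05 was reached by 11 below 0 and 2 above 0, against 5.9% and 6.14% of all clones. These marker clones had a median of -0.09 over the list and a range of that median from -0.20 to 0.07 over the arrays. Their part in the App values was not tested.

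At 4 h in DBA/2J mice App clones 1 to 3 had means nearer to 0. App clone 5 stood lowest at -0.395 (SE 0.13, adjusted p = 0.274), with arrays from -1.11 to 0.07 around a median of -0.34 and 9 of 10 below 0. App clone 2 had a mean of -0.33 (SE 0.13, adjusted p = 0.343) with 9 of 10 arrays below 0, and App clone 3 of -0.31 (SE 0.13, adjusted p = 0.416) with 8 of 10. App clone 1, at -0.08 (SE 0.13), had opposite signs in the 2 dye orientations, 0.18 and -0.33. The median of the 5 App means was -0.31, against 0.003 for all clones.

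In C57BL/6 mice App clone 2 was the lowest of the family at 8 h. Its 10 arrays lay between -0.75 and -0.09 with a median of -0.41, none above 0. The mean of -0.42 (SE 0.11) had an unadjusted p of 0.0032 and an adjusted p of 0.27, in a comparison where 0.346% of all clones were below 0 on every array. App clone 1 averaged -0.30 (SE 0.13), made up of -0.85 with the stressed pool in Cy5 and 0.26 with it in Cy3, so the orientations disagreed in sign. App clones 3, 4 and 5 averaged -0.07, 0.16 and -0.12, and the first 2 of these were at the empty-spot level. At 4 h App clone 1 averaged -0.29 (SE 0.091, adjusted p = 0.223), again with -0.63 in one orientation and 0.05 in the other, and App clone 2 averaged -0.26 (SE 0.15, adjusted p = 0.552) with 9 of 10 arrays below 0. The median of the 5 App means was -0.13 at 4 h and -0.12 at 8 h.

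Between the strains at rest, App clone 1 had the most negative value of the family. It ranged from -1.47 to 0.25 with a median of -0.515 and was below 0 on 8 of 10 arrays. Its mean was -0.53 (SE 0.15, adjusted p = 0.065), with -0.93 when the DBA/2J pool was in Cy5 and -0.12 when it was in Cy3. App clone 2 ranged from -0.795 to 0.02 with a median of -0.36 (mean -0.37, SE 0.13, adjusted p = 0.18), and 9 of 10 arrays were below 0. App clones 3, 4 and 5 averaged 0.14, -0.16 and -0.02. App clone 5 averaged -0.625 with the DBA/2J pool in Cy5 and 0.59 with it in Cy3, so its mean near 0 is the balance of opposite values. App clones 1 and 2 had means below 0 in all 5 comparisons, and for App clone 2 this held within each dye orientation too.

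Aplp1 clone 1 had values of opposite sign in the strains at 4 h. In DBA/2J mice it ranged from -1.19 to 0.26 with a median of -0.40 (mean -0.45, SE 0.13, unadjusted p = 0.004, adjusted p = 0.21), and 9 of 10 arrays were below 0. The mean was -0.79 with the stressed pool in Cy5 and -0.11 with it in Cy3. In C57BL/6 mice at 4 h it ranged from -0.34 to 0.83 with a median of 0.23 (mean 0.17, SE 0.12, adjusted p = 0.634), and 7 of 10 arrays were above 0. At 8 h the order was the reverse, with 0.02 (SE 0.094) in DBA/2J mice and -0.29 (SE 0.12, adjusted p = 0.48) in C57BL/6 mice. The other clone, Aplp1 clone 2, had the same sign in both strains at 4 h. It averaged -0.24 (SE 0.21) in DBA/2J mice and -0.16 (SE 0.245) in C57BL/6 mice. At 8 h it averaged -0.20 (SE 0.18) in DBA/2J mice and 0.02 (SE 0.16) in C57BL/6 mice. Aplp1 clone 2, which was above the empty spots on none of the arrays at rest, ranged there from -0.32 to 1.21 with a median of 0.85 (mean 0.56, SE 0.18, adjusted p = 0.124), and Aplp1 clone 1 averaged -0.03 (SE 0.17) in the same comparison. The difference between these clones was not tested.

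Aplp2 clone 2 had means between -0.33 and 0.18. Its arrays in DBA/2J mice at 4 h ranged from -0.60 to -0.02 around a median of -0.19 (mean -0.26, SE 0.12, adjusted p = 0.479). All 10 were below 0, as was the case for 0.78% of all clones in this comparison. The mean in DBA/2J mice at 8 h was -0.31 (SE 0.11, adjusted p = 0.268), and 8 of 10 arrays were below 0. In C57BL/6 mice it averaged 0.18 (SE 0.091, adjusted p = 0.453) at 4 h, with 9 of 10 arrays above 0, and -0.33 (SE 0.16, adjusted p = 0.554) at 8 h. The dim Aplp2 clone 1 had standard errors of 0.17 to 0.27 and means from -0.13 to 0.38.

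Differences between responses were fitted over the 20 arrays of each pair of comparisons, and again limma called none of the 9 clones. Of all clones, 2.34% were called for the strain difference at 4 h, 0.6% for that at 8 h, 0.495% for 8 h against 4 h in C57BL/6 mice and 1% for the same in DBA/2J mice. At an unadjusted p under 0.05, 3, 2, 2 and 3 of the 9 clones passed, against 13.6%, 10.4%, 10.7% and 12.1% of all clones. The DBA/2J response minus the C57BL/6 response of Aplp1 clone 1 at 4 h was -0.62 (SE 0.17, 95% interval -0.96 to -0.27, adjusted p = 0.051). For Aplp2 clone 2 at 4 h it was -0.44 (SE 0.14, adjusted p = 0.103). The 8 h minus 4 h difference of Aplp1 clone 1 was -0.46 (SE 0.16, adjusted p = 0.257) in C57BL/6 mice and 0.47 (SE 0.15, adjusted p = 0.139) in DBA/2J mice. For Aplp2 clone 2 it was -0.51 (SE 0.18, adjusted p = 0.258) in C57BL/6 mice and -0.05 (SE 0.15) in DBA/2J mice. Aplp1 clone 2 had a strain difference of -0.08 (SE 0.34, unadjusted p = 0.82) at 4 h. Its 8 h minus 4 h differences were 0.18 (SE 0.30) in C57BL/6 mice and 0.04 (SE 0.29) in DBA/2J mice.

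For App the strain difference of the 8 h response was small in the bright clones. It was -0.07 for App clone 2, with a 95% interval from -0.325 to 0.18, -0.135 (-0.44 to 0.17) for App clone 1, and -0.12 (-0.40 to 0.155) for App clone 5. The values near -0.4 to -0.5 of App clone 2 in both strains at 8 h were thus not shown to differ. App clone 3 differed by -0.615 (SE 0.27, adjusted p = 0.43), with its C57BL/6 arrays at the empty-spot level. At 4 h, where App clone 3 passed the filter in both strains, its strain difference was -0.44 (SE 0.17, unadjusted p = 0.019, adjusted p = 0.235). The other App clones lay between -0.26 and 0.21 in that contrast. The 8 h minus 4 h difference in DBA/2J mice was -0.35 (SE 0.145, adjusted p = 0.309) for App clone 1 and -0.375 (SE 0.17, adjusted p = 0.376) for App clone 3, while it was 0.15 (SE 0.14) for App clone 5.

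**Figure D3:**
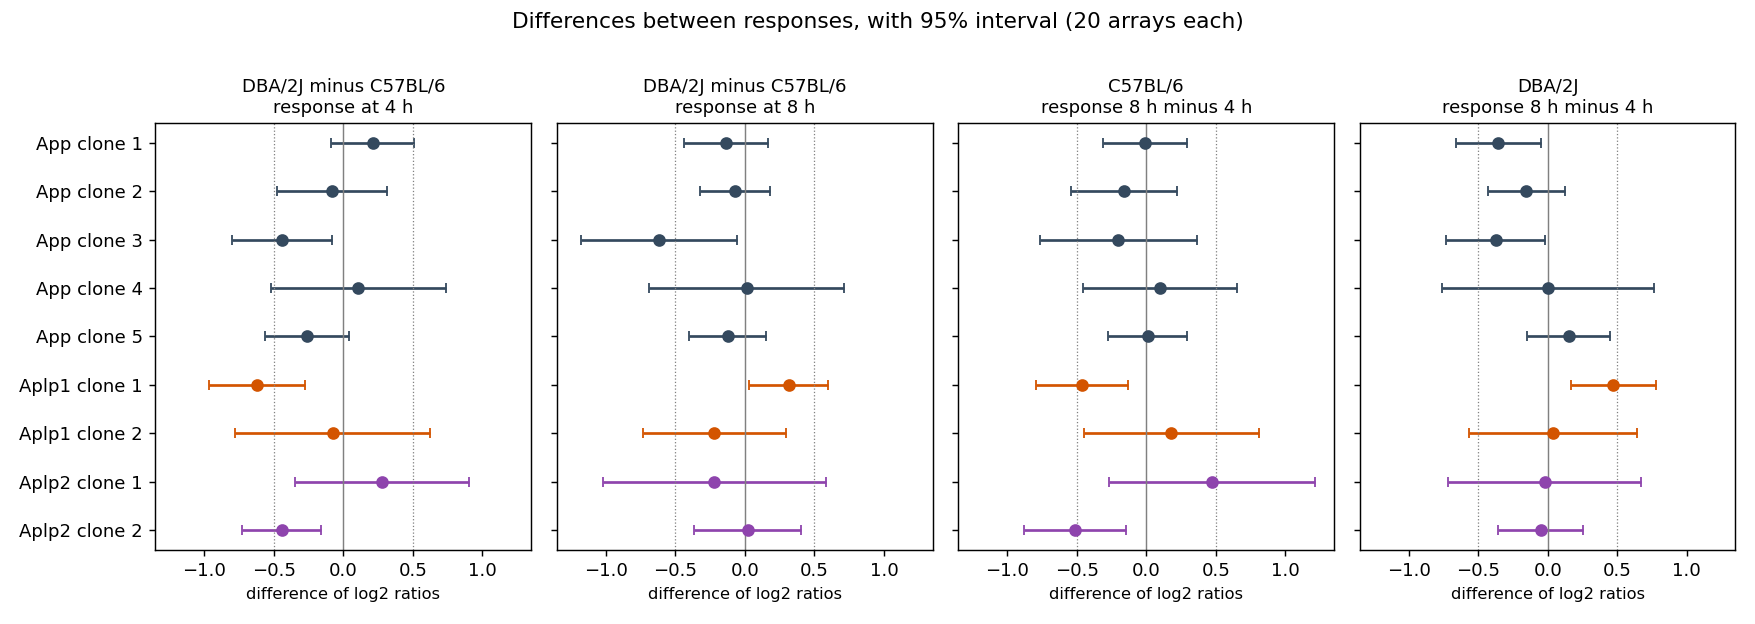
Points are the differences between 2 responses on the log2 scale (horizontal axis) for each clone, bars are 95% intervals over 20 arrays, and dotted lines mark the fold threshold of 0.5 on either side. Aplp1 clone 1 is at -0.62 for the strains at 4 h and at 0.47 for 8 h against 4 h in DBA/2J mice, and its 4 intervals leave out 0, whereas most intervals of the App clones include 0.

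After the dye term of each comparison was taken out, the 10 pairs of App clones correlated over the 50 arrays at -0.17 to 0.145, with a median of 0.04. From array to array the clones of App thus hardly varied together. The mean of the App clones was taken over all 5, including dim clones whose ratios carry little information. Likeness to this mean may therefore reflect the array noise of the dim clones, and their share in it was not tested. Against the mean of the App clones, Aplp1 clone 1 had an r of 0.22 and a rho of 0.195, and Aplp2 clone 2 had 0.03 and 0.05. Among 1703 named clones above the empty spots, r had a median of -0.004 and lay between -0.295 and 0.27 for the central 95%. The genes most alike to the mean of the App clones were speckle-type POZ protein (r 0.45, rho 0.43) and cathepsin S (r 0.396, rho 0.38). The first is an adaptor of a ubiquitin ligase and the second a lysosomal protease. Next came peroxisomal acyl-CoA thioesterase 2B (r 0.39, rho 0.34), the nuclear import receptor karyopherin (importin) alpha 1 (r 0.38, rho 0.355) and the glycosyltransferase UDP-Gal:betaGlcNAc beta 1,3-galactosyltransferase, polypeptide 2 (r 0.38, rho 0.36). With each gene taken by its clone of highest r, the lowest genes were sprouty protein with EVH-1 domain 2, related sequence (r -0.38), PHD finger protein 5A (r -0.37) and melanophilin (r -0.37). The 50 arrays are repeats on 6 pools, so these correlations describe the arrays and carry no p. Whether the highest and lowest r go beyond the extremes that noise gives over 1703 clones was not tested. With the median of the App clones in place of their mean, r of the 5 highest genes ran from 0.244 for cathepsin S to 0.425 for karyopherin (importin) alpha 1. Aplp1 clone 1 then had an r of 0.135. Over the 5 comparison means the r of speckle-type POZ protein was 0.80, and that of cathepsin S was -0.085.

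The genes that cut, sort or bind App were read from a list of 42 genes with 78 clones. The list held 5 alpha- and beta-secretases, 3 genes of gamma-secretase, 12 adaptors of the App tail, 13 partners and sorting proteins, and 9 proteins that bind or break down amyloid beta. Of the 78 clones, limma called 2 higher and 3 lower at rest, 1 lower in C57BL/6 mice at 4 h, 2 higher in C57BL/6 mice at 8 h, none in DBA/2J mice at 4 h, and 1 lower in DBA/2J mice at 8 h, where 3.62%, 0.289%, 0.0832%, 0.153% and 0.158% of all clones were called in either direction. The median over the 78 clones was 0.06, 0.10, -0.01, -0.04 and -0.08 in these comparisons, against medians of all clones between -0.006 and 0.008. For DBA/2J mice at 4 h, where none was called, 5 clones above 0 and 7 below 0 had an unadjusted p under 0.05. The shares of all clones there were 5.25% above 0 and 5.42% below 0. Neither the gamma-secretase genes, the adaptors of the tail nor the amyloid beta binding proteins had a called clone in any of the 5 comparisons. Over the comparisons 4 of 20, 15 of 90 and 6 of 75 of their clone values had an unadjusted p under 0.05, beside 9.28% to 15.4% of all clones per comparison. Limma also called list clones in the differences between responses. For the strains at 4 h, 1 was higher, the adaptor Nae1 at 0.83 (adjusted p = 0.022). The 4 lower were both clones of Itm2c and both of Clstn3. Itm2c, a partner, stood at -0.61 (adjusted p = 0.0083) and -0.53 (adjusted p = 0.041). For the strains at 8 h, 3 were lower, all of them clones of Adam10. For 8 h against 4 h in C57BL/6 mice, 3 were higher, from Adam10 and Rtn4, and 1 was lower, from Itm2c. In DBA/2J mice 1 was higher, from Itm2c, and 2 were lower, both from Adam10. Of all clones, 2.34% and 0.6% were called for the strains at 4 h and 8 h. For 8 h against 4 h it was 0.495% in C57BL/6 mice and 1% in DBA/2J mice.

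At rest 1 of 2 clones of the secretase Bace2, a relative of beta-secretase, stood lower in DBA/2J mice at -0.91 (SE 0.14, adjusted p = 0.0019, 10 of 10 arrays), and the other, above the empty spots on no array, was at -0.22 (SE 0.27, adjusted p = 0.768). A clone of Rtn3, a reticulon that binds beta-secretase, stood at -0.79 (SE 0.16, adjusted p = 0.012), while the other Rtn3 clones, above the empty spots on none of these arrays, were uncalled at 0.20, 0.08 and -0.17. A clone of Clstn1, a calsyntenin that forms complexes with App through a shared adaptor, stood at -0.76 (SE 0.14, adjusted p = 0.0056) from spots above the empty spots on 1 of 10 arrays, and the other Clstn1 clones were uncalled at 0.24 and 0.31. In C57BL/6 mice at 4 h a clone whose array name RefSeq lists as a synonym of Rtn4, another reticulon, was lower on all 10 arrays, at -0.70 (SE 0.099, adjusted p = 0.017), and the other Rtn4 clones were uncalled at -0.085 and -0.20. The lowest p of the list in DBA/2J mice at 4 h belonged to a clone of Clstn3, at -0.68 (SE 0.135, adjusted p = 0.072). The other Clstn3 clone was at -0.655 (adjusted p = 0.079). Both were called for the strain difference at 4 h, at -0.775 (adjusted p = 0.0056) and -0.72 (adjusted p = 0.034).

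Adam10, the main alpha-secretase of neurons, had 4 clones and was the member of the list with calls in 3 comparisons. Its clone on spot 7838 was higher at rest in DBA/2J mice, 0.75 (SE 0.13, adjusted p = 0.0044), higher in C57BL/6 mice at 8 h, 1.21 (SE 0.115, adjusted p = 0.0011), and lower in DBA/2J mice at 8 h, -0.66 (SE 0.091, adjusted p = 0.025), each time on 10 of 10 arrays. The strain difference of its 8 h response, looked up after these values were seen, was -1.87 (SE 0.13, adjusted p = 5.6e-08), and the other clones of Adam10 gave -1.79, -1.24 and, uncalled, -0.29 (adjusted p = 0.807), while the App clones in the same contrast lay between -0.615 and 0.01. The uncalled clone, above the empty spots on none of the arrays in 4 of the 5 comparisons, had means from -0.265 to 0.34.

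**Figure D4:**
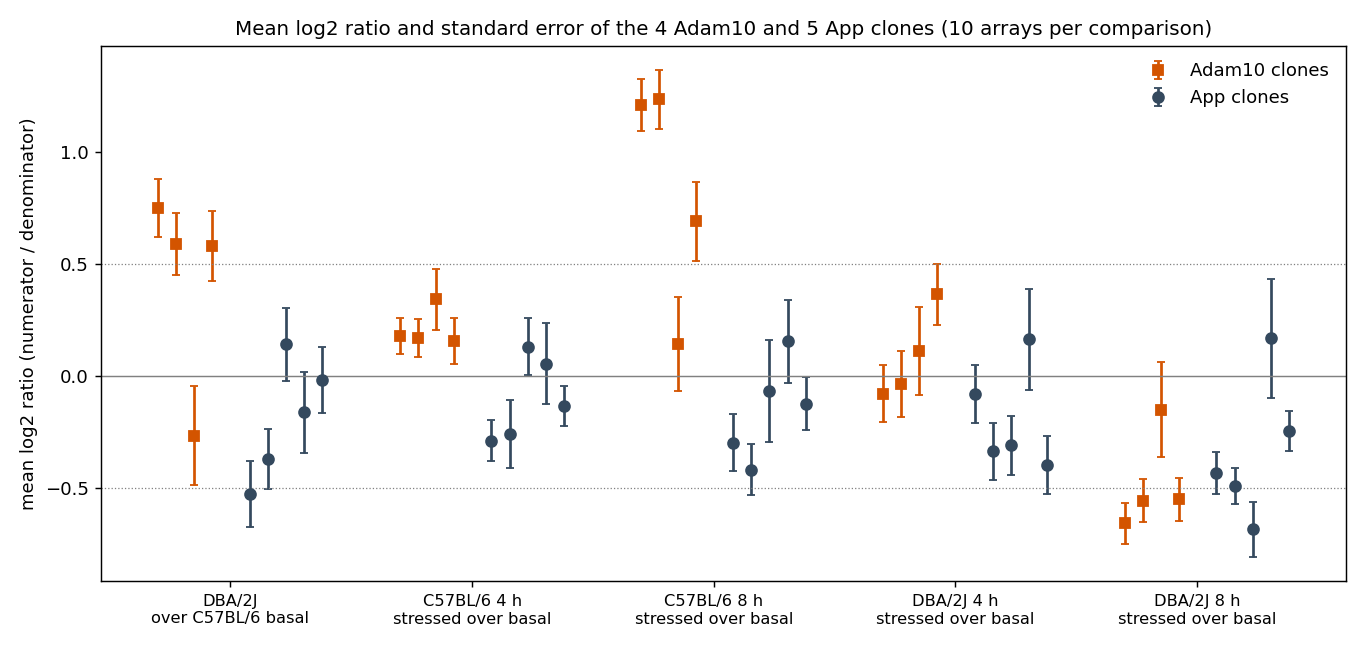
Squares are the 4 Adam10 clones and circles the 5 App clones in spot order, each as the mean log2 ratio with its standard error over 10 arrays (vertical axis), for the 5 comparisons. At 8 h 3 of the Adam10 squares stand well above 0 in C57BL/6 mice and below -0.5 in DBA/2J mice, while the App circles lie between -0.42 and 0.16 in the former and between -0.68 and 0.17 in the latter.

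Marker clones of several cell types were called as well. At rest 6 of 30 astrocyte marker clones were called higher, and 7 of 32 oligodendrocyte marker clones were called higher and 2 lower, with list medians of 0.14 and 0.16, where 1.6% of all clones were called higher and 2.02% lower. Of the hypothalamic marker clones, Resp18 was called higher at 0.90 and 1 of 2 clones of Scg2 lower at -0.81. Of 5 red blood cell marker clones 2 were called higher. None of the 32 neuron marker clones was called there, and 6 above 0 and 1 below 0 had an unadjusted p under 0.05. The shares of all clones at that p were 7.82% above 0 and 7.59% below 0. After stress 1 neuron marker clone was called in each strain at 8 h, from Snap25, a neuronal fusion protein. The Snap25 values were 0.89 in C57BL/6 mice and -0.56 in DBA/2J mice. At an unadjusted p under 0.05, 1 of the 32 neuron marker clones was above 0 and 2 were below 0 in C57BL/6 mice at 8 h. The shares of all clones were 5.04% above 0 and 4.24% below 0. The list median there was -0.08. In DBA/2J mice at 8 h, 2 neuron marker clones were above 0 and 11 below 0, against 6.14% and 5.9% of all clones. Their list median was -0.09. The other marker calls after stress were the hypothalamic genes Resp18 (0.52 in C57BL/6 mice at 4 h) and Trh (-0.75 in DBA/2J mice at 4 h). The part of cell composition in the values of App, Aplp1 and Aplp2 was not tested.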

How the data were processed

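Per the labels and methods, 50 two-colour arrays were hybridised with Cy3- and Cy5-labelled amplified RNA. The deposited files hold spot intensities from fixed-circle quantification, which the authors did not background-subtract, and the local background was 0 for 96.6% of readings. The authors also deposited a table of log2 ratios for 19047 spots, used here as an alternative; array medians lie within 0.01 of 0, all 9 clones are in it, and each column correlated at 0.883 to 0.972 with its array as processed here. The log base was inferred from the spread, and the filter behind the 19047 spots is not given in the sources used here. The published fold changes, which are the authors' comparisons, were not used.

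The dye of each channel was read from the image names, since 4 files have Cy3 first. Intensities were corrected by normexp (offset 50), normalized by loess within each array with control spots at weight 0, turned to the labelled numerator over denominator, and fitted per comparison with lmFit and eBayes of limma 3.58.1 (R 4.3.3) with a dye term. P-values were adjusted over 22824 clones. Pool levels used loess and Aquantile normalization. The fit was tested on simulated data. The number of arrays limits the precision.

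The members, the gene lists and the tests were chosen with earlier results of these data known. All 9 clones were tested in all comparisons and entered the counts, but the text does not state every value. From the list of App-related genes at most 4 called members a comparison are named, or the one of lowest p, and for likeness to App the 5 highest and 3 lowest genes. List symbols were matched to array names by hand. Alternatives covered background, normalization, dim clones, dye term, test, the authors' values, scan day, fits over all arrays, averaged or separate orientations, and leaving out each array. No protein or clone sequence is shown.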

Additional observations from a re-analysis of the deposited data

Results flagged for a closer look

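In 45 sets of 10 arrays (9 clones in 5 comparisons) 3 arrays stood apart from the rest by Dixon's test, which flags about 1 in 20 sets by chance. App clone 2 had a log2 ratio of 0.831 on replicate 8 of C57BL/6 mice at 4 h, with the next highest at -0.07 and a mean of -0.26 over all 10 arrays. App clone 2 had -0.277 on replicate 9 of DBA/2J mice at 8 h, with the next at -0.442, and without this array its mean was -0.516. Aplp2 clone 1, whose spots were at the empty-spot level, had 1.77 on replicate 1 of C57BL/6 mice at 4 h, with the next highest at -0.031. None of the 9 clones was called by limma for a difference between the strains or between the times in the fit as reported.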

How the results depend on the processing

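At rest App clone 1 was called (1 of 9 clones) with print-tip loess, with dim clones left out, with the authors' processed values, with scan day as a random block and with all 50 arrays in 1 fit, at log2 ratios from -0.537 to -0.526, and the unadjusted t-test called 2. In DBA/2J mice at 8 h median centring called 3 clones (App clones 1, 2 and 3, at -0.534, -0.589 and -0.714), while it raised the calls among all clones from 36 to 96. There the authors' processed values called 2 (App clones 1 and 2), and print-tip loess, the adjusted p alone (both App clone 2), the t-test with and without adjustment, scan day as a block and all 50 arrays (all App clone 3) called 1. No clone was called in any comparison without background subtraction, with scale normalization, without a dye term, with the orientations averaged (which leaves few degrees of freedom) or in either orientation alone. For the strain difference at 4 h Aplp1 clone 1 was called (1 clone) with print-tip loess, median centring, all 50 arrays and the authors' values. With the numerator in Cy3 alone the median of the App clones was 0.244 in C57BL/6 mice at 8 h and -0.257 in DBA/2J mice at 8 h. Leaving out 1 array moved that median between -0.478 and -0.391 in DBA/2J mice at 8 h, and called 0 clones in all 5 comparisons. App clones 1, 2, 3 and 5 were below 0 in DBA/2J mice at 8 h in every alternative that gave them a value. Of 864 clone values under the alternatives other than leaving out an array, 36 changed sign. Same-numbered arrays of paired comparisons correlated at -0.016 to 0.021, so the numbers do not pair them. With the replicate block 0 clones were called in all 4 differences, and Aplp1 clone 1 at 4 h kept -0.619 with an adjusted p of 0.205.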
